A study of Mus musculus with 4 samples.

Results

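The AP-1 subunits of the Fos and Jun classes were examined in RNA-seq of mouse neural progenitor cells (NPCs) that were cultured on soft and stiff matrices with or without knockdown of serum response factor (Srf). The genes were taken by symbol, and all 7 (Fos, Fosb, Fosl1, Fosl2, Jun, Junb and Jund) were found among the 21925 gene symbols of each library. The control group consisted of N31 NPCs, a line derived by differentiation from iPSCs that carries Dox-inducible Oct4, Klf4, c-Myc and Sox2, and the shSrf group consisted of N31 cells with the short hairpin shSrf#1 against Srf (Srf-knockdown NPCs). Whether the control cells carried a vector is not given in the sources used here. Both populations were kept without EGF and bFGF, with insulin in the medium, on collagen-coated matrices of 0.5 kPa, which is near the stiffness of brain, or 12 kPa. There was 1 library in each of these 4 groups (control and shSrf, each at 0.5 and 12 kPa), so that differences could not be checked against replicates and p-values are not given. Errors below are standard errors from the counting of reads and cover neither culture nor library preparation.

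AP-1 is a dimeric transcription factor. Jun proteins pair with each other or with Fos proteins through a leucine zipper, and the adjoining basic region contacts DNA, whereas Fos proteins need a Jun partner. Most Fos and Jun genes are immediate-early genes, whose RNA is made and lost quickly after growth factors, stress or mechanical load reach the cell. Srf and its ternary complex factor (TCF) partners bind the serum response element upstream of Fos, and the JNK and ERK kinases act on Jun and Fos proteins. These experiments ask how the stiffness of the matrix and the knockdown of Srf change gene expression in NPCs.

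The deposited values are FPKM, which are read numbers scaled to the length of the transcript and to the mapped reads of the library, so that levels of different genes can be compared within a library. Depth, estimated from the whole-read steps of low values, was 24125057 to 29113449 reads in the control and 45046970 to 62305267 in the shSrf libraries. Each comparison included the 10491 genes whose FPKM was over 2 in every library, and a gene was called higher or lower where its ratio passed 1.1-fold. This fold was taken over from the methods of the publication. Of the 7 AP-1 genes, 6 passed this minimum and Fosb did not. Srf, the targeted gene, stood at FPKM 34.4 (0.5 kPa) and 35.6 (12 kPa) without the hairpin and at 16.2 and 17.4 with it. Of 12 NPC markers, 6 were above an FPKM of 2 in each control library and 7 in each shSrf library, while Sox1, Hes5 and Olig2 were listed at 0 in all 4. The summed FPKM of the NPC markers was 1585 to 1802 in control and 2447 to 2470 in Srf-knockdown NPCs, of which Vim made up 93.5% to 97.3%. Without Vim the sums had the other order, 103 to 106 in control and 67.2 to 73.9 in Srf-knockdown NPCs. At each stiffness 3 of the 6 NPC markers above the minimum (Sox2, Pax6 and Vim) were higher in Srf-knockdown NPCs and 3 (Nes, Slc1a3 and Notch1) were lower. Of 8 mesenchymal markers, 7 or 8 were above 2 (summed FPKM 2556 to 2756). Among them Col1a1, Pdgfrb and Twist1 were higher in Srf-knockdown NPCs at each stiffness, and Col1a2 and Fbn1 were lower. Of 7 neuron markers, 4 were above 2, with sums of 57.1 and 60.5 in control and 123 and 118 in Srf-knockdown NPCs. Stmn2 and Map2 were higher in Srf-knockdown NPCs at each stiffness and Snap25 was lower, while Tubb3 was higher at 12 kPa only. Of 6 astrocyte markers, 2 were above 2, with sums of 30.1 to 35.3 in control and 13.8 to 19.0 in Srf-knockdown NPCs. Of these 2, Aqp1 was lower in Srf-knockdown NPCs and Aldh1l1 was higher. Aqp1 made up 81.9% and 74.1% of the control sums at 0.5 and 12 kPa, which were 6.37 and 7.81 without it. In Srf-knockdown NPCs at 12 kPa the sum without Aqp1 was 9.42, so that the order of the sums rested on Aqp1 there. The part of these differences in the AP-1 results was not tested. The libraries are bulk measurements, in which fewer cells with a transcript and less of it per cell cannot be told apart.

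The AP-1 genes are spread over 6 chromosomes of mm10. Fos (FBJ osteosarcoma oncogene) lies on chromosome 12 from 85473890 to 85477274, Fosb on chromosome 7 from 19302696 to 19310118, Fosl1 (Fra1) on chromosome 19 from 5447698 to 5455938 and Fosl2 (Fra2) on chromosome 5 from 32136472 to 32157840. Jun lies on chromosome 4 from 95049036 to 95052222, and Junb (84976909 to 84978748) and Jund (70697739 to 70700616) share chromosome 8. In the GENCODE version M1 annotation the longest transcript of each Fos gene has 4 exons, whereas the Jun genes have 1 exon and no intron. The transcripts of Junb and Jund were the richest in GC of the family (62.6% and 62.7%), and the others had between 51.9% and 57.9%. GC content bears on the comparison of the populations and is given with it.

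Promoter sequences from RefSeq (GRCm38.p6) were matched for 6 of the 7 genes, Fosl1 being the gene without an entry. Those of Fos and Junb, the genes with the highest ratios of Srf-knockdown to control NPCs, and of Jun, whose ratios were lower, are shown so that the elements near their start sites can be compared. Each line gives the 250 bases before the start, 5′ to 3′ on the gene's strand, and capitals mark a GC box (GGGCGG on either strand), a TATA box (TATAAA) or a CCAAT box (CCAAT).
Fos, plus strand of chr12:85473640-85473889: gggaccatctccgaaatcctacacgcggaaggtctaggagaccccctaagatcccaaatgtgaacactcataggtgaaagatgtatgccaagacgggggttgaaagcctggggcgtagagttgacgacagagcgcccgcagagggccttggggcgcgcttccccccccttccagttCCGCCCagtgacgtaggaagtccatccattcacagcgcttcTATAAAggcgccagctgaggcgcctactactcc
Junb, minus strand of chr8:84978749-84978998: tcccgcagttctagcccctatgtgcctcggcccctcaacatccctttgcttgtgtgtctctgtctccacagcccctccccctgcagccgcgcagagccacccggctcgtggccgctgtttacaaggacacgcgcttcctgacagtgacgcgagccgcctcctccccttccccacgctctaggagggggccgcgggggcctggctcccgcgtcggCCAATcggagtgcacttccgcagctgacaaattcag
Jun, minus strand of chr4:95052223-95052472: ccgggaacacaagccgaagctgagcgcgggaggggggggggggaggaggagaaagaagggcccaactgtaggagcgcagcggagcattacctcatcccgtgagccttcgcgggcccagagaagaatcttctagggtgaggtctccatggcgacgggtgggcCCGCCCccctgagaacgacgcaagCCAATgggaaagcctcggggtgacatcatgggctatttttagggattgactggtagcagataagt
The Fos window held a TATA box at positions -33 to -28 from the start and a GC box, read from the other strand, at -74 to -69. The Jun window held a CCAAT box at -65 to -61 and a GC box at -89 to -84, and that of Junb held a CCAAT box at -36 to -32. In the 250 bases before to 50 bases after the start, no CArG box (the core of the serum response element), CRE (TGACGTCA), AP-1 site (TGANTCA) or ETS site (CCGGAA) was found on either strand in any of the 6 genes. Only exact matches were counted, so that sites with a base changed were not searched for. Of 32851 promoter windows of the same length, 1.63% held a CArG box, 1.79% a CRE, 7.81% an AP-1 site and 14.9% an ETS site, so that most promoters lack these letters too. GC boxes were found in 4 of the 6 genes and in 35.7% of all windows, and CCAAT boxes in 2 and in 37.4%. The letters TATAAA were found in 2 genes and in 13.6% of windows. In Fos they lay before the start, and in Junb past it, at positions 1 to 6. A serum response element farther upstream lies outside these windows.

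The Jun genes were expressed at higher levels than the Fos genes in all 4 libraries. Junb, a Jun protein that activates many promoters less strongly than Jun, had the highest FPKM of the family in each library, at 62.2 and 39.2 in control and 112 and 102 in Srf-knockdown NPCs on the 0.5 and 12 kPa matrices. Jun had 43.9 and 26.9 in control and 39.96 and 37.1 in Srf-knockdown NPCs. Jund, the member usually made at a steady level in resting cells, had 29.9 and 23.9 in control and 41.3 and 47.3 in Srf-knockdown NPCs. The control library at 12 kPa was thus the lowest of the 4 for each Jun gene, whereas the highest library differed among them (shSrf at 0.5 kPa for Junb, control at 0.5 kPa for Jun and shSrf at 12 kPa for Jund).

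Among the Fos genes, Fosl2 had the highest FPKM in control NPCs and Fos in Srf-knockdown NPCs. Fos had an FPKM of 7.85 and 4.67 in control and of 24.1 and 16.6 in Srf-knockdown NPCs at 0.5 and 12 kPa. Its highest value was 5.17 times its lowest, the widest range in the family. Fosl1, a Fos protein without a transactivation domain that is itself an AP-1 target, had 11.2 and 7.32 in control and 14.7 and 11.9 in Srf-knockdown NPCs. Fosl2, the other such protein, had 15.9 and 11.2 in control and 11.4 and 11.6 in Srf-knockdown NPCs, so that control NPCs on the soft matrix stood above the other 3 libraries. Fosb had 1.23 and 2.61 in control and 1.32 and 1.34 in Srf-knockdown NPCs, and only the control library at 12 kPa was above the minimum.

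**Figure D1:**
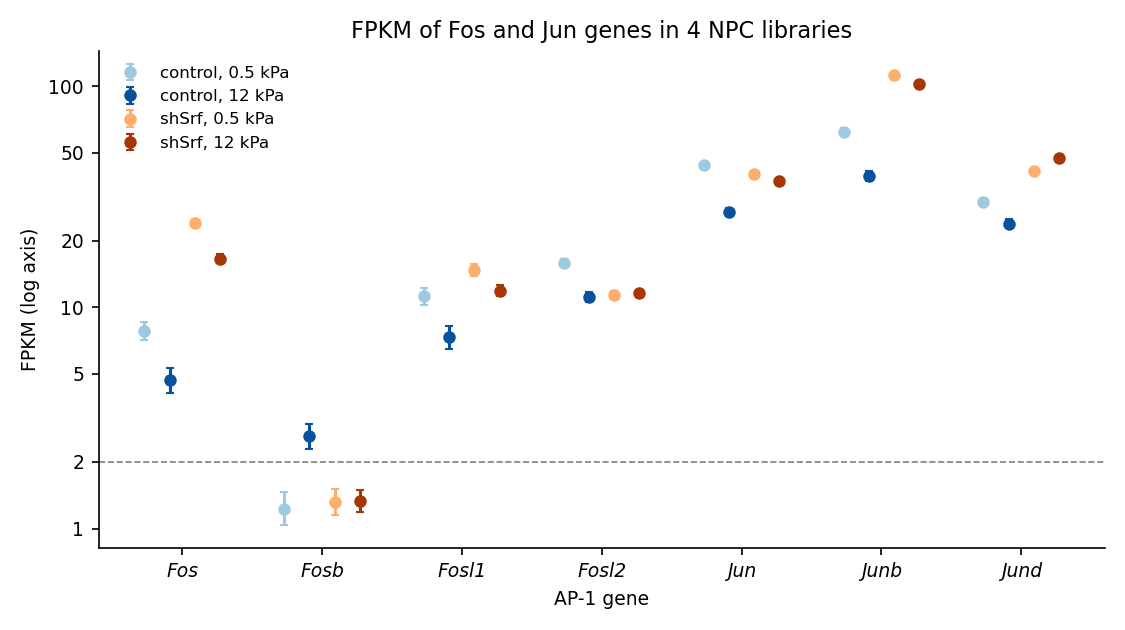
FPKM of each AP-1 gene (log axis) in control and shSrf NPCs at 0.5 and 12 kPa, 1 point for each library, with 95% counting intervals and the minimum FPKM of 2 as a dashed line. The control library at 12 kPa is the lowest point of all genes but Fosb, for which it is the highest at 2.61.

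The order of the levels also differed between the populations. In both control libraries it ran from Junb through Jun, Jund, Fosl2, Fosl1 and Fos to Fosb, and every neighbouring pair differed by more than its counting interval. In Srf-knockdown NPCs Jund stood above Jun and Fos above Fosl1 and Fosl2. Here the neighbours Jund and Jun at 0.5 kPa (a log2 difference in level of 0.05 ± 0.03) and Fosl1 and Fosl2 at 12 kPa (0.04 ± 0.05) did not differ beyond counting error. Against all included genes, Junb was above 80.3% in control NPCs at 0.5 kPa and above 89.8% in Srf-knockdown NPCs at 0.5 kPa. Fos was above 9.07% of genes in control NPCs at 12 kPa and above 52.9% in Srf-knockdown NPCs at 0.5 kPa.

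The summed FPKM of the 7 genes was 172 and 116 in control NPCs at 0.5 and 12 kPa and 244 and 228 in Srf-knockdown NPCs. Control NPCs on the stiff matrix thus had the smallest pool of AP-1 transcripts and Srf-knockdown NPCs on the soft matrix the largest. The Jun genes made up most of each sum, 136 and 90.1 in control and 193 and 187 in Srf-knockdown NPCs. The Fos genes added 36.2 and 25.8 in control and 51.5 and 41.4 in Srf-knockdown NPCs. The Fos sum over the Jun sum was 0.266 ± 0.006 and 0.286 ± 0.008 in control and 0.267 ± 0.004 and 0.222 ± 0.003 in Srf-knockdown NPCs, so the balance of the classes moved less than the pool. Within the pool, Junb took 33.9% to 36.1% of the FPKM in control and 44.9% to 45.7% in Srf-knockdown NPCs. Jun took 23.2% to 25.5% in control and 16.3% in both Srf-knockdown libraries. Fos took 4.03% to 4.56% in control and 7.27% to 9.87% in Srf-knockdown NPCs, while Fosl2 took 9.23% to 9.64% in control and 4.66% to 5.07% in Srf-knockdown NPCs. These are shares of transcripts, and dimers or proteins were not measured in these libraries.

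**Figure D2:**
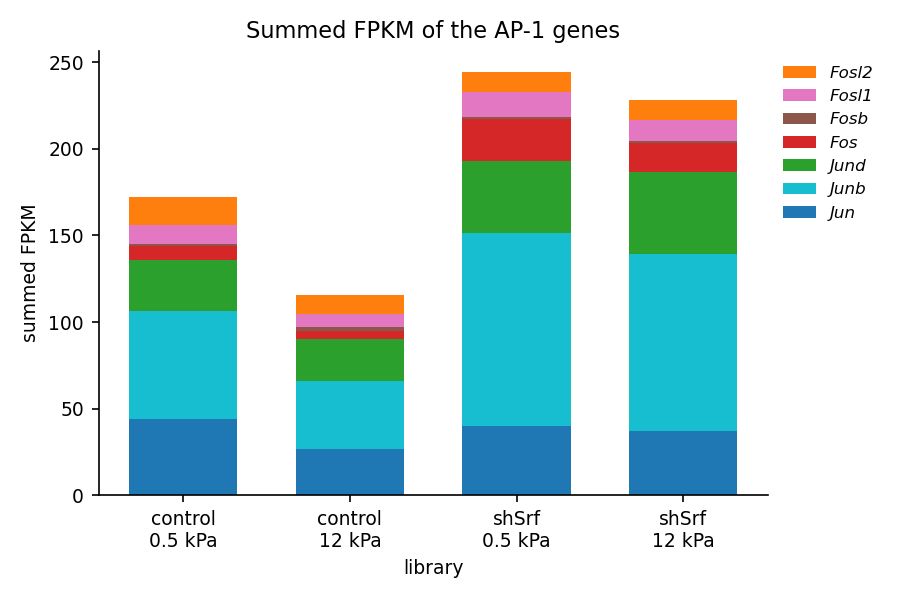
Summed FPKM of the Jun genes (lower segments) and Fos genes (upper segments) in each of the 4 libraries. The sum is lowest in control NPCs at 12 kPa (116) and highest in Srf-knockdown NPCs at 0.5 kPa (244), and Junb is the largest segment in each bar.

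In control NPCs the stiff matrix went with lower levels of the AP-1 genes. All 6 included members were lower by more than 1.1-fold, against 16.9% of the 10491 genes, and 4 of the 6 (Fos, Fosl1, Jun and Junb) were lower by more than 1.5-fold, against 0.972% of genes. The median log2 ratio of the 6 was -0.64, against 0.0030 for all genes, whose 5th and 95th percentiles were -0.30 and 0.32. For Fos the log2 ratio was -0.75 ± 0.12, which was rank 45 from the lowest of the 10491 genes. Jun (-0.71 ± 0.04, rank 52), Junb (-0.66 ± 0.05, rank 68) and Fosl1 (-0.61 ± 0.11, rank 91) lay close to it. Fosl2 had -0.51 ± 0.05 (rank 150), and Jund was the least lowered with -0.32 ± 0.05 (rank 467). The counting interval of each of the 6 ratios lay below 0. The comparison rests on 215 to 1942 estimated reads for each included member in the library at 12 kPa.

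Fosb went the other way in control NPCs. Its FPKM of 1.23 at 0.5 kPa and 2.61 at 12 kPa rested on an estimated 127 and 224 reads and gave a log2 ratio of 1.08 ± 0.16, a 2.12-fold higher level on the stiff matrix. In Srf-knockdown NPCs its ratio was 0.02 ± 0.13. Since it was below the minimum in 3 libraries, Fosb is not among the counted members, and with a pseudocount of 1 its ratio in control NPCs was 0.69.

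In Srf-knockdown NPCs the difference between the matrices was smaller for most members. Of the 6 members, 2 were lower at 12 kPa past 1.1-fold, against 13% of genes, and 1 was higher, against 17.6%. The members that were lower were Fos (-0.54 ± 0.05, rank 45 from the lowest of 10491) and Fosl1 (-0.31 ± 0.06, rank 224). Jun (-0.11 ± 0.03), Junb (-0.13 ± 0.02) and Fosl2 (0.02 ± 0.04) stayed within 1.1-fold, and the counting intervals of Jun and Junb lay below 0 while that of Fosl2 included it. Jund was higher on the stiff matrix, with 0.20 ± 0.03. After each ratio was centred within 50 bins of transcript GC content, Jund had 0.07 and was within 1.1-fold. Jun (-0.15) and Junb (-0.25) then passed 1.1-fold, so that 4 members were lower, against 12.3% of genes, and 0 were higher, against 14.7%.

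**Figure D3:**
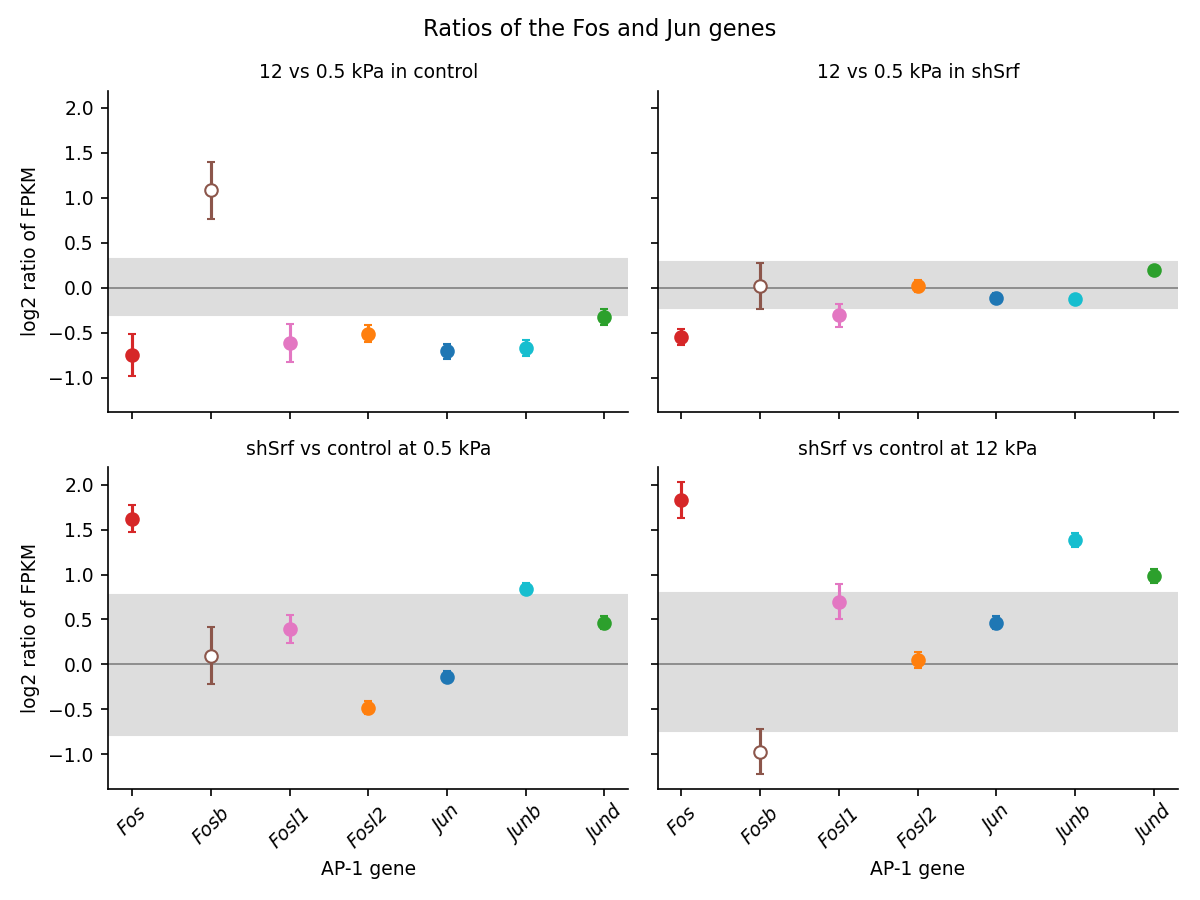
Log2 ratios of FPKM of the 7 AP-1 genes in 4 comparisons (panels), with 95% counting intervals. The grey band spans the 5th to 95th percentiles of the 10491 included genes, and the open symbol is Fosb, which did not reach an FPKM of 2 in 3 libraries. Control NPCs have all 6 included members under the band for 12 against 0.5 kPa (-0.75 to -0.32), while Srf-knockdown NPCs have 2.

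The stiffness ratio of each included member was higher in Srf-knockdown than in control NPCs. The difference of the log2 ratios (shSrf minus control) was above 0 for 6 of 6 members, against 50.8% of genes, and past 1.1-fold for 6 of 6, against 23.8%. With a pseudocount of 1, Fos had a difference of 0.127, which is within 1.1-fold. Without a pseudocount the difference was 0.60 ± 0.05 for Jun, 0.54 ± 0.05 for Junb, 0.53 ± 0.06 for Fosl2 and 0.52 ± 0.05 for Jund. In these uncentred values, at most 2.92% of all genes had a larger difference than these 4 genes. It was 0.31 ± 0.13 for Fosl1 and 0.21 ± 0.13 for Fos, and the counting interval of Fos included 0. For Fosb, below the minimum, it was -1.07 ± 0.21. Correction for GC content lowered the difference to 0.39 for Junb, 0.37 for Jund and 0.18 for Fosl1. Jun (0.54), Fosl2 (0.51) and Fos (0.18) changed less. The share of genes with a larger difference is not given for the corrected values. With 1 library in each group this difference was not tested.

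**Figure D4:**
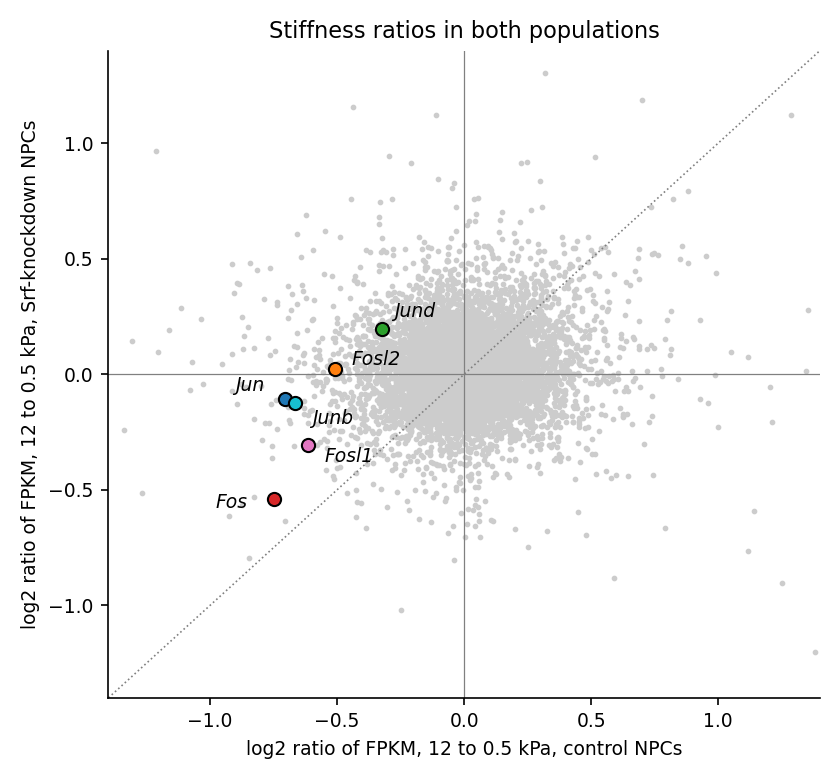
Log2 ratios of FPKM from 0.5 to 12 kPa in control (x axis) and Srf-knockdown NPCs (y axis) for the 10491 included genes in grey (4 lie outside the axes) and the 6 included AP-1 members in colour. All 6 members lie left of 0 and above the dotted line of equal ratios, and Fos is the nearest to that line, with -0.75 and -0.54.

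Between Srf-knockdown and control NPCs, Fos and Junb differed most. Fos was 3.07-fold higher in Srf-knockdown NPCs at 0.5 kPa (log2 ratio 1.62 ± 0.08) and 3.55-fold higher at 12 kPa (1.83 ± 0.10), and 0.562% and 0.410% of genes had a higher ratio. Junb was 1.79-fold higher at 0.5 kPa (0.84 ± 0.03) and 2.61-fold higher at 12 kPa (1.38 ± 0.04). These comparisons share their libraries with the stiffness ratios above, the control library at 12 kPa entering both.

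The other members were not uniform. Jund was higher at 0.5 kPa (0.47 ± 0.04) and at 12 kPa (0.98 ± 0.04), as was Fosl1 (0.39 ± 0.08 and 0.70 ± 0.10). Jun had -0.14 ± 0.03 at 0.5 kPa, just within 1.1-fold, and was higher at 12 kPa with 0.46 ± 0.04. Fosl2 was lower at 0.5 kPa (-0.48 ± 0.04) and had 0.05 ± 0.04 at 12 kPa. Fosb had 0.10 ± 0.16 and -0.97 ± 0.13. By count, 4 of the 6 members were higher by more than 1.1-fold at 0.5 kPa, against 37.4% of genes, and 1 was lower, against 35.7%. At 12 kPa 5 were higher, against 37.6%, and 0 were lower, against 35.9%. By more than 1.5-fold, 2 members were higher at 0.5 kPa and 4 at 12 kPa, against 9.2% and 10.2% of genes, and 0 were lower at either stiffness, against 9.27% and 8.87%.

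The ratios between the populations depended on GC content for the GC-rich members. After centring within bins of GC content, Jund had 0.12 at 0.5 kPa, within 1.1-fold, and 0.50 at 12 kPa, and Junb had 0.50 and 0.90. Fosl1 had 0.25 and 0.42. With this centring 1 member was higher by more than 1.5-fold at 0.5 kPa (Fos) and 2 were at 12 kPa (Fos and Junb), against 7.85% and 7.41% of genes, and 1 (Fosl2) was lower at 0.5 kPa, against 9.32%. Fos, whose transcript has a GC content of 51.9%, had 1.504 and 1.75, and Jun had -0.23, a lower level by more than 1.1-fold, and 0.30. The stiffness ratios in control NPCs moved less, to -0.30 for Jund, -0.64 for Junb and -0.75 for Fos.

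The Srf partners and the kinases that act on AP-1 were compared from lists of known genes. Of 6 Srf and partner factor genes, the 3 TCF genes and Mkl1 and Mkl2 among them, 0 were higher and 3 were lower on the stiff matrix in control NPCs, against 17.9% and 16.9% of all genes. The log2 ratio of Srf itself between Srf-knockdown and control NPCs was -1.09 ± 0.04 on the soft and -1.03 ± 0.03 on the stiff matrix. Mkl1, the actin-regulated cofactor of Srf, had -0.53 ± 0.03 and -0.13 ± 0.03, and the TCF genes Elk1 (0.38 ± 0.05 and 0.25 ± 0.05) and Elk3 (0.15 ± 0.02 and 0.12 ± 0.02) had ratios above 0, whereas the TCF gene Elk4 had -0.18 ± 0.04 and 0.08 ± 0.04. Of 16 MAP kinase pathway genes, 14 were above the minimum, and in control NPCs 1 was higher and 3 were lower on the stiff matrix, against the same 17.9% and 16.9%. Between the populations, 3 were higher and 7 lower at 0.5 kPa, against 37.4% and 35.7% of genes, and 3 higher and 6 lower at 12 kPa, against 37.6% and 35.9%. These shares of all genes hold for the other lists below too. Mapk8, which encodes JNK1, a kinase of Jun, had a ratio of Srf-knockdown to control of -0.80 ± 0.03 and -0.77 ± 0.03, and Mapk14 (p38α) had -0.49 ± 0.02 and -0.42 ± 0.03. Mapk3, which encodes ERK1, had 0.85 ± 0.02 and 0.41 ± 0.02, and Rps6ka3, a kinase downstream of ERK that acts on Fos, had 0.57 ± 0.02 and 1.02 ± 0.03.

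Other bZIP genes, whose products can pair with Fos or Jun, had ratios near 0 at their median. Of 14 such genes, 10 were above the minimum. In control NPCs 4 were higher and 1 was lower on the stiff matrix, against 17.9% and 16.9% of genes, with a median log2 ratio of 0.09, where that of the AP-1 members was -0.64. Between Srf-knockdown and control NPCs 3 were higher and 3 lower at each stiffness, near the shares of all genes (37.4% and 35.7% at 0.5 kPa). The highest ratios were those of Atf7 (0.62 ± 0.04 at 0.5 kPa and 0.11 ± 0.04 at 12 kPa) and Mafk (0.38 ± 0.11 and 0.28 ± 0.10), and the lowest those of Mafg (-0.29 ± 0.02 and -0.18 ± 0.02) and Atf2 (-0.21 ± 0.03 and -0.20 ± 0.03). Of 10 genes for the turnover of AP-1 proteins and for their cofactors, 1 was higher and 2 were lower on the stiff matrix in control NPCs, near those shares (17.9% and 16.9%). Cops5, a coactivator of Jun also known as Jab1, had a ratio of Srf-knockdown to control of 0.68 ± 0.02 and 0.47 ± 0.02. The coactivator Crebbp had -0.55 ± 0.04 and -0.66 ± 0.04, and the ubiquitin ligase Smurf1 had -0.26 ± 0.03 and -0.23 ± 0.03.

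Among other early-response genes, which like Fos are induced soon after a stimulus, more were lower than higher on the stiff matrix in control NPCs. Of 25 listed, 21 were above the minimum, and 11 were lower and 3 higher by more than 1.1-fold, against 16.9% and 17.9% of genes, with a median log2 ratio of -0.25. Egr1, a zinc finger factor whose promoter Srf and the TCFs bind, had an FPKM of 87.0 and 36.2 in control and of 196 and 137 in Srf-knockdown NPCs at 0.5 and 12 kPa. As for Fos, the control library at 12 kPa was the lowest and the shSrf library at 0.5 kPa the highest. Its ratio of Srf-knockdown to control was 1.17 ± 0.02 at 0.5 kPa and 1.93 ± 0.03 at 12 kPa. Btg2, an antiproliferative gene, had 1.94 ± 0.10 and 1.91 ± 0.10. Over the list, 11 genes were higher and 7 lower in Srf-knockdown NPCs at 0.5 kPa, and 10 were higher and 8 lower at 12 kPa. Of all genes, 37.4% were higher and 35.7% lower at 0.5 kPa, and 37.6% and 35.9% at 12 kPa, so that the lower genes of the list were near the share of all genes. Among the lowest ratios were those of Socs3, a feedback inhibitor of cytokine signalling (-1.36 ± 0.03 and -0.19 ± 0.03), and Nr4a2, a nuclear receptor (-0.50 ± 0.09 and -1.25 ± 0.08).

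Genes known as AP-1 targets were compared last. Of 24 listed, 19 were above the minimum. In control NPCs 10 were lower and 2 higher on the stiff matrix (median log2 ratio -0.15), against 16.9% and 17.9% of genes, and in Srf-knockdown NPCs 7 were lower and 3 higher (-0.06), against 13% and 17.6%. Between the populations 11 genes were lower and 6 higher in Srf-knockdown NPCs at each stiffness, against 35.7% and 37.4% of genes at 0.5 kPa and 35.9% and 37.6% at 12 kPa. The list had a median of -0.40 at 0.5 kPa and -0.23 at 12 kPa, whereas the medians of the AP-1 members were 0.43 and 0.84. Ptgs2, the inducible cyclooxygenase, had an FPKM of 23.9 and 24.4 in control and of 4.06 and 4.25 in Srf-knockdown NPCs (-2.56 ± 0.06 and -2.52 ± 0.05). Mmp3, which encodes the matrix protease stromelysin, had 11.1 and 9.22 in control and 2.88 and 2.77 in Srf-knockdown NPCs (-1.95 ± 0.12 and -1.74 ± 0.12). In the other direction, Spp1 (osteopontin) had 0.96 ± 0.01 and 0.86 ± 0.01, and the chemokine gene Ccl2 had 0.97 ± 0.05 and 0.76 ± 0.06. Targets of these kinds answer to other factors as well.

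**Figure D5:**
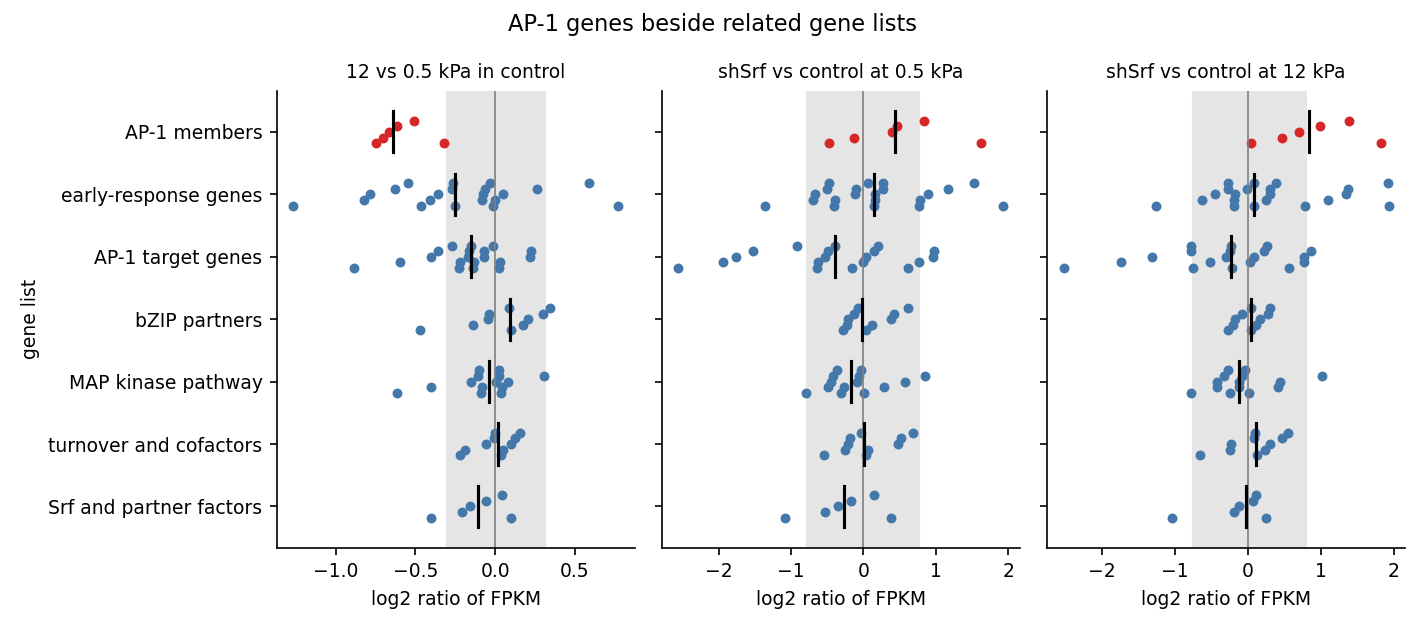
Log2 ratios of FPKM of the included genes in the AP-1 family (red) and 6 related lists (blue) in 3 comparisons, 1 point for each gene, with the list's median as a black bar and the 5th to 95th percentiles of all included genes in grey. The AP-1 median lies at -0.64, 0.43 and 0.84 from the left panel to the right, and that of the AP-1 targets at -0.15, -0.40 and -0.23.

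For each included member whose highest FPKM was more than 1.5 times its lowest, the genes with the most similar pattern over the 4 libraries were found by the distance between log2 values centred on their means. The nearest genes to Fos were Nrn1 (distance 0.247), Krt8 (0.335) and Smarca2 (0.396), where the median distance of all genes was 1.84. Those near to Junb included Ier2 (0.117) and Rrad (0.194), Ier2 being itself an early-response gene, with an FPKM of 58.0 and 33.7 in control and 99.0 and 85.5 in Srf-knockdown NPCs. The genes nearest to Jun were Mcub (0.0808), Chd7 (0.0868) and Kcnn4 (0.105). Those nearest to Jund were Atf5 (0.0433), Dhx34 (0.0435) and Sphk2 (0.0561), and those nearest to Fosl1 included Mbnl3 (0.0901) and Rgs3 (0.128) after an unnamed RIKEN cDNA gene (0.0561). Within the family, Junb was the member nearest to Fos (0.681), and 49 other genes lay closer.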

How the data were processed

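RNA-seq libraries of control and Srf-knockdown N31 NPCs on matrices of 0.5 and 12 kPa were analysed, 1 for each condition. The authors trimmed reads with cutadapt 1.9.1, mapped them to mm10 with TopHat2 2.1.0, Bowtie2 2.2.8 and the GENCODE M14 annotation, kept those with a mapping quality of at least 20 and deposited FPKM values from Cufflinks 2.2.1 for each gene. The strand setting is not given in the sources used here. Of 63 symbols on more than 1 row, 61 were left out. For Junb and Map2k7 the higher row was used.

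Log2 ratios were computed without a pseudocount or rescaling. Reads of a gene were estimated from its FPKM, the length of its longest GENCODE M1 transcript less 200 nucleotides, and the depth, for which 42.8% of 1047 genes with an FPKM under 0.1 fell on whole-read steps (within 0.03 reads). These estimates are approximate and give the counting errors, with intervals of 95%. The arithmetic was tested on simulated data. Members and lists were chosen with earlier results of these data known. Genes named are all members, Egr1, Srf, the 2 highest and 2 lowest of each list by mean ratio of Srf-knockdown to control, and the 3 most similar genes of each member. Ier2 is named among the last, and Elk4 and the cell type markers are named outside this rule. Some genes that this rule names are not reported here. Alternatives were other minimum values, a pseudocount of 1, scalings and fold thresholds. Treatment of the Junb rows, and GC centring joined with the 1.5-fold threshold, were added after the data were examined. Python 3.11.15, numpy 2.4.6, pandas 2.3.3 and matplotlib 3.10.9 were used.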

Additional observations from a re-analysis of the deposited data

Results flagged for a closer look

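Of 45 genes taken by the naming rule that reached the minimum, 7 had stiffness ratios that passed 1.1-fold both in control NPCs and in the Srf knockdown but with unlike signs. A lone library stood for every condition, so the difference was not tested. For the results flagged here the share over all genes was not computed, so their number has no background to be read against. On the log2 scale, Jund had a stiffness ratio of -0.32 in control and 0.20 with shSrf, and their difference was 0.52. GC centring took the value with shSrf to 0.07 and the difference to 0.37. For Mkl1 these ratios were -0.21 and 0.20 (difference 0.41), and for Socs3 they were -0.55 and 0.62 (difference 1.17). Atf7 had the other order, 0.35 in control and -0.16 with shSrf (difference -0.51). Atf5 (difference 0.45), Dhx34 (0.57) and Sphk2 (0.62) were lower in control NPCs and higher with shSrf, and they had been picked for a pattern like that of Jund. Mcub and Kcnn4, picked for a pattern like that of Jun, had ratios of Srf-knockdown to control of unlike sign at 0.5 and 12 kPa, -0.23 and 0.39 for Mcub (difference 0.62) and -0.16 and 0.47 for Kcnn4 (difference 0.63), which was not tested either.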

How the results depend on the processing

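No paired analysis was possible because there was 1 library in a condition, and for the same reason no replicate could be left out. The fold threshold and GC content changed the counts most. Past 2-fold, 0 members were lower on the stiff matrix in control NPCs, against 0.105% of genes. In Srf-knockdown NPCs 0 were higher or lower past 1.5-fold (0.458% and 0.324% of genes) or past 2-fold (0.0572% and 0.0286%). Past 1.2-fold 0 were higher in those cells, against 5.99%. In Srf-knockdown against control NPCs at 0.5 kPa, 2 members were higher past 1.5-fold and 1 past 2-fold, against 9.2% and 2.45% of genes. Past either, 0 were lower, against 9.27% and 2.86%. At 12 kPa 2 were higher past 2-fold, against 2.75%. With centring within bins of GC content, 0 members were higher and 4 lower on the stiff matrix in Srf-knockdown NPCs, against 14.7% and 12.3%. With that, with centring on the median or with scaling to the 75th percentile, 2 were lower in Srf-knockdown NPCs at 0.5 kPa, Jun being added. The shares of genes were 35.5%, 36.6% and 35.7%. With a minimum FPKM of 5, which leaves out Fos, 1 member was lower on the stiff matrix in Srf-knockdown NPCs, against 12.2% of genes. With a minimum of 1, or none and a pseudocount of 1, Fosb was included. Then 1 member was higher on the stiff matrix in control NPCs, against 19.2% and 12.4% of genes. At 12 kPa 1 was lower in Srf-knockdown than in control NPCs, against 36% and 21.8%. GC centring and a threshold of 1.5-fold together were chosen after seeing the data. With both, 3 members were lower on the stiff matrix in control NPCs, against 0.878% of genes. In Srf-knockdown NPCs 0 were higher or lower on it, against 0.439% and 0.24%. Compared with control NPCs, 1 was higher in Srf-knockdown NPCs at 0.5 kPa and 2 at 12 kPa, against 7.85% and 7.41%. Without Fos and Junb, the Fos sum over the Jun sum was 0.384 and 0.415 in control and 0.337 and 0.294 in Srf-knockdown NPCs at 0.5 and 12 kPa. The difference of the stiffness ratios stayed above 0 for each included member but Fosb under every alternative run, and no ratio past 1.1-fold changed sign. For Fos that difference was 0.127 with a pseudocount of 1, which is within 1.1-fold. Adding the lower Junb row or leaving Junb out, both chosen after seeing the data, moved no count by over 1.5 times.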

Other observations

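Junb occupied 2 rows in each library, and the files do not say what the lower row stands for. The lower row had an FPKM of 0.708 and 0.855 in control and of 0.687 and 0.165 in Srf-knockdown NPCs at 0.5 and 12 kPa, far below the higher row.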
